A study of Mus musculus with 2 samples.

Results

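Strong DNase-seq peaks in which no footprint was called were few and lay mostly at promoters, next to a much stronger peak. They were defined in each library as peaks on chromosomes 1 to 19 with a signal at or above the median of the library's larger peak list that overlapped, by at least 1 bp, no footprint of either library. In replicate 1, 1780 of 74695 strong peaks met this rule, out of 150726 peaks in the list. In replicate 2, 1798 of 76964 strong peaks did, out of 155536.

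DNase-seq marks accessible chromatin by where the nuclease DNase I cuts. A peak is a stretch with many cuts, and its signal here is the authors' peak height scaled to sequencing depth. The tissue was left cerebral cortex of male B6CASTF1/J mice, crosses of C57BL/6J with CAST/EiJ, at 14 days of age, with no treatment named in the labels. The single group held 2 biological replicates, and the labels name 3 males for replicate 1 and 1 male for replicate 2. Both labels carry the same donor identifier, so a spread between animals and a spread between samples of 1 source cannot be told apart. The tissue is a mixture of cell types, so a weak signal in many cells and a strong signal in few cells cannot be told apart.

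A footprint is a short run of bases within accessible DNA that is cut less than the bases beside it, as happens where a protein sits on the DNA for long enough to shield it. Factors that stay on the DNA only briefly can leave little or no footprint. Many promoters of broadly used genes lie in CpG islands, stretches rich in G, C and the dinucleotide CpG that are accessible in most tissues.

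The sequences of 4 such peaks are given as examples and do not show the range of the class. They are mm10 (GRCm38) reference bases of the plus strand, from the RefSeq copy of the assembly, and CpG dinucleotides are in capitals. The first lies at chr2:91182421-91182720 within an intron of Madd, which encodes an activator of Rab3 GTPases, 277 bp downstream of the nearest annotated start. The second lies at chr9:106371318-106371600 within an intron of Dusp7, which encodes a phosphatase of MAP kinases, 715 bp downstream of the start. The third lies at chr16:11640041-11640200 in an intron of the sorting nexin gene Snx29, and the fourth at chr13:99842741-99842900 in intergenic sequence 57820 bp from the start of Cartpt, a neuropeptide gene.
Madd peak: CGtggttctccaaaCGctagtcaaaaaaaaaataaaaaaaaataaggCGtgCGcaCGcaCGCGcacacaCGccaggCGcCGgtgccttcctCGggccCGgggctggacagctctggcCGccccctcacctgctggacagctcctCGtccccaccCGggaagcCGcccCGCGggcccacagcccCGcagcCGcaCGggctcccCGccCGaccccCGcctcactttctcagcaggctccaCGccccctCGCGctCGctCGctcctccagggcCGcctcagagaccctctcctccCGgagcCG
Dusp7 peak: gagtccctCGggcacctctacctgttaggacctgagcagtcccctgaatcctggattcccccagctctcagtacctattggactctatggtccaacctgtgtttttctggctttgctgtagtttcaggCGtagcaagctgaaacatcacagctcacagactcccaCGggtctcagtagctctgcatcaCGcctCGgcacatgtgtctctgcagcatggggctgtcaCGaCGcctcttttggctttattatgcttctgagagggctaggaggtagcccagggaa
Snx29 intronic peak: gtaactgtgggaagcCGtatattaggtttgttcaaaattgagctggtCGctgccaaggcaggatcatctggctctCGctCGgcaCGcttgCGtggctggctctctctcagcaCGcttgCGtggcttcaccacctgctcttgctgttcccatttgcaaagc
Intergenic peak: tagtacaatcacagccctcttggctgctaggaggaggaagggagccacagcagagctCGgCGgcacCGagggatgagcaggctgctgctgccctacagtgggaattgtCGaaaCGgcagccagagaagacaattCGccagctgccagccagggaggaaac

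The Madd peak held 32 CpG dinucleotides in 300 bp and had a GC content of 69.7%. The Dusp7 peak held 7 in 283 bp, the Snx29 peak 8 in 160 bp and the intergenic peak 6 in 160 bp. Signals in replicates 1 and 2 were 1.06 and 1.28 at Madd, 1.27 and 1.64 at Dusp7, 1.00 and 2.24 in Snx29, and 1.77 and 1.77 at the intergenic site.

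All 4 were picked among the 947 members of replicate 1 that overlapped a member of replicate 2. The Madd and Dusp7 peaks came from those at promoters with a stronger peak within 1000 bp. The Snx29 and intergenic peaks came from those with no other peak there, which were 42 of the 947 (4.44%). Of all members, 9.27% in replicate 1 and 11.4% in replicate 2 had no other peak within 1000 bp. The contrast between these pairs is thus set by the choice. Of all members outside promoters, 54.0% and 54.9% had a stronger peak within 1000 bp. The neighbour of the Madd peak, at chr2:91183241-91183440, had signals of 7.37 and 10.1, and 7 footprints of the 2 libraries together covered 117 of its 200 bases. The neighbour of the Dusp7 peak, at chr9:106371921-106372160, had signals of 1.91 and 3.18, and 10 footprints covered 89 of its 240 bases. Both are shown with the footprinted bases of either library in capitals, to set beside the members, which hold none.
Madd neighbour: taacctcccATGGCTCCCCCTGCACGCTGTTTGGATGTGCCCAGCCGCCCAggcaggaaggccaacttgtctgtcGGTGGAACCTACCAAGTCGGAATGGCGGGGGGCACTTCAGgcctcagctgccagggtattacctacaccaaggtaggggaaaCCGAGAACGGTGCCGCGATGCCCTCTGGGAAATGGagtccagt
Dusp7 neighbour: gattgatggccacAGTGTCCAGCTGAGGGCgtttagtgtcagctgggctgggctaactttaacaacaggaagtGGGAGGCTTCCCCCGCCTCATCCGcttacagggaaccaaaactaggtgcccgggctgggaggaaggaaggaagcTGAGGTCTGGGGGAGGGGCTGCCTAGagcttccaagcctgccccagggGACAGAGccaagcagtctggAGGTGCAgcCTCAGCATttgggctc
The Snx29 and intergenic peaks had no other peak within 1000 bp in replicate 1, and the nearest footprints were 11946 bp and 4654 bp away.

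Members made up 2.38% of strong peaks in replicate 1 (Wilson 95% interval 2.28 to 2.49) and 2.34% in replicate 2 (2.23 to 2.45). The intervals of shares here cover counting error only. Members were chosen by signal and by the lack of a footprint, so both are given as descriptions. The share of peaks without a footprint was 47.3% and 53.2% in the lowest decile of peak signal (replicates 1 and 2), 5.37% and 5.73% in the sixth, and 0.198% and 0.244% in the ninth. In the highest decile there was no such peak among 14658 and 15135, which allows a share of up to 0.0205% and 0.0198%. The median signal of members was 0.691 and 0.811, with a highest value of 2.53 and 2.43, while footprinted strong peaks reached 35.2 and 36.3.

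**Figure D1:**
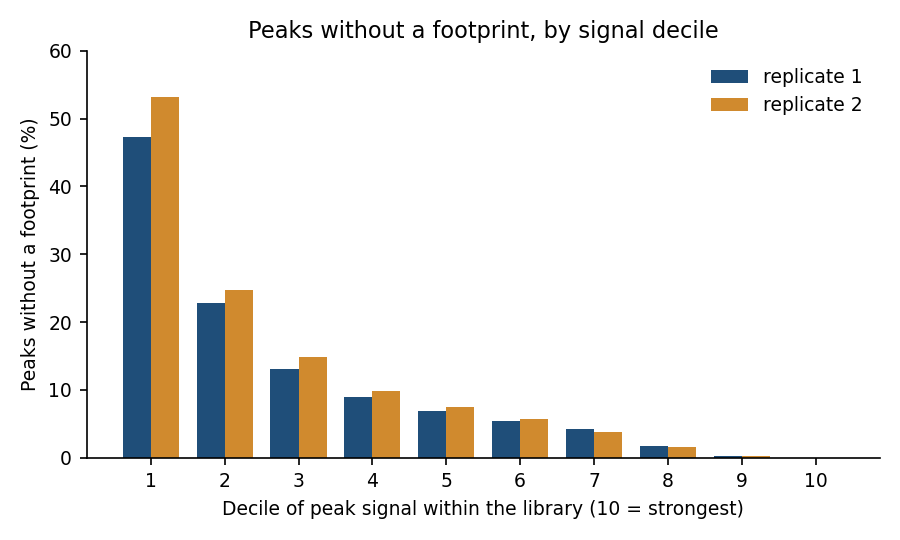
Share of peaks on chromosomes 1 to 19 without a footprint of either library (vertical axis, percent) by decile of peak signal within each library (horizontal axis), 1 bar per replicate. The share falls from 47.3% and 53.2% in the lowest decile to 0 in the highest.

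At the signal threshold, 0.549 in replicate 1, the first members inside were a promoter peak of Slco5a1 (chr1:12991601-12991720) and an exonic peak of Zfp451 (chr1:33776460-33776629). Just outside, at 0.545, were footprint-free promoter peaks of 2810459M11Rik and Epb41l5. In replicate 2 the threshold was 0.663. Peaks at Tuba4a and Asic4 had that value, and footprint-free promoter peaks at Atic and Epha4 lay just below it at 0.657. Lower signals in the lists were whole multiples of 0.00474 and 0.00614, and the median member stood at 146 and 132 such steps. If 1 step is 1 cut, counting error alone would be 8.28% and 8.7% of the signal of such a peak. Counting footprints of the peak's own library alone gave 3516 and 2985 peaks. Of these, 1736 and 1187 had a footprint in the other library and are not members.

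Since signal and footprints go together, members were set against footprinted strong peaks weighted to the same mix of signal deciles, called the comparison below. Values are given per library, or as the mean ± SD over n = 2 libraries. An exact paired permutation test over 2 libraries cannot give a p below 0.5, so none was run, and peaks within a library are not replicates. Each difference is a description of these libraries.

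Promoters held most of the members. Within 1000 bp of an annotated transcript start lay 81.9% of members (80.1 to 83.6) in replicate 1 and 76.8% (74.8 to 78.7) in replicate 2, against 23.3% and 21.6% of the comparison. The excess was 56.9 ± 2.39 percentage points (SD, n = 2). Introns held 9.72% and 12.5% of members against 42.4% and 43.1%, and intergenic sequence held 5.67% and 7.68% against 29.24% and 29.97%. Exons outside promoters held 2.70% and 3.00% against 5.06% and 5.34%. This last order turned over when a promoter was counted as 500 bp around a start, with an excess in exons of 1.09 points. Over 10 kb from any start lay 6.91% and 9.23% of members and 41.7% and 42.5% of the comparison. In the other direction, 5.53% of strong promoter peaks in replicate 1 and 5.40% in replicate 2 were members, against 0.509% and 0.662% of intergenic ones. By chromosome, member shares lay between 1.81% and 3.02% of its strong peaks in replicate 1 and between 1.84% and 2.69% in replicate 2.

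**Figure D2:**
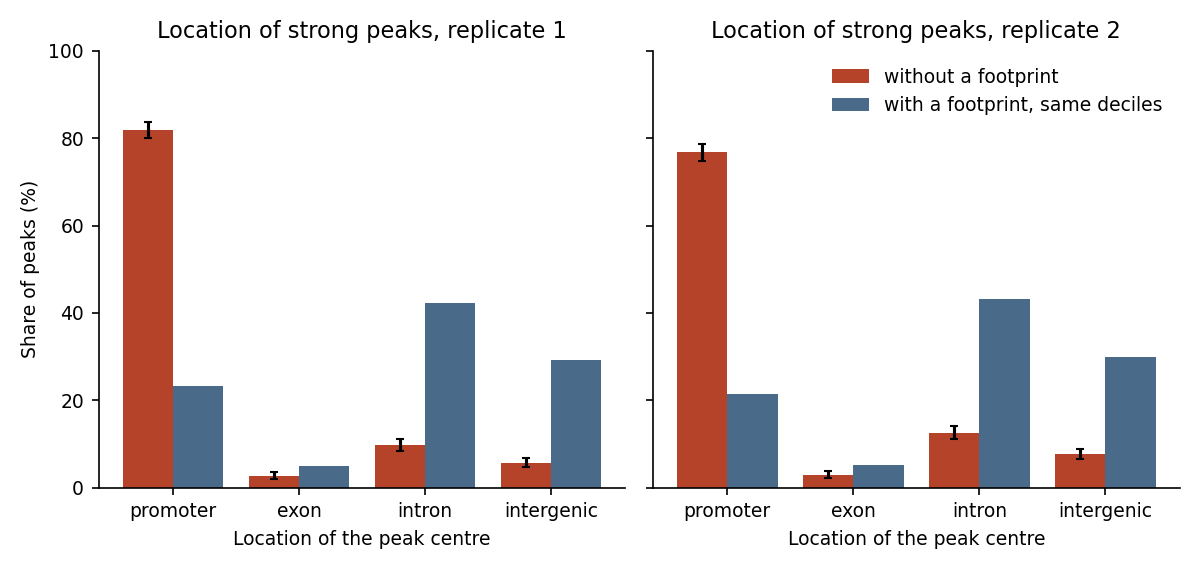
Share of strong peaks (vertical axis, percent) by location of the peak centre, for members (red, with Wilson 95% intervals) and for footprinted peaks of the same signal deciles (blue), 1 panel per replicate. Promoters hold 81.9% and 76.8% of members and 23.3% and 21.6% of footprinted peaks.

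Promoter members sat to the downstream side of the start. Their centres lay more than 200 and up to 600 bp downstream of the nearest start in 47.3% of cases in replicate 1 and 47.7% in replicate 2, against 21.9% and 21.6% of the comparison. Within 200 bp of the start lay 27.9% and 26.2% of promoter members, against 42.2% and 42.1%. The median position was 276 bp and 267 bp downstream for members, and 22 bp and 13 bp downstream for the comparison. Among promoter peaks with a stronger peak within 1000 bp the share in that downstream zone was 48.4% and 48.7% against 29.6% and 29.2%, a smaller difference of 19.2 points where all promoter peaks gave 25.8. The nearest start belonged to a protein-coding gene for 88.9% and 89.9% of promoter members, against 81.0% and 79.7%.

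**Figure D3:**
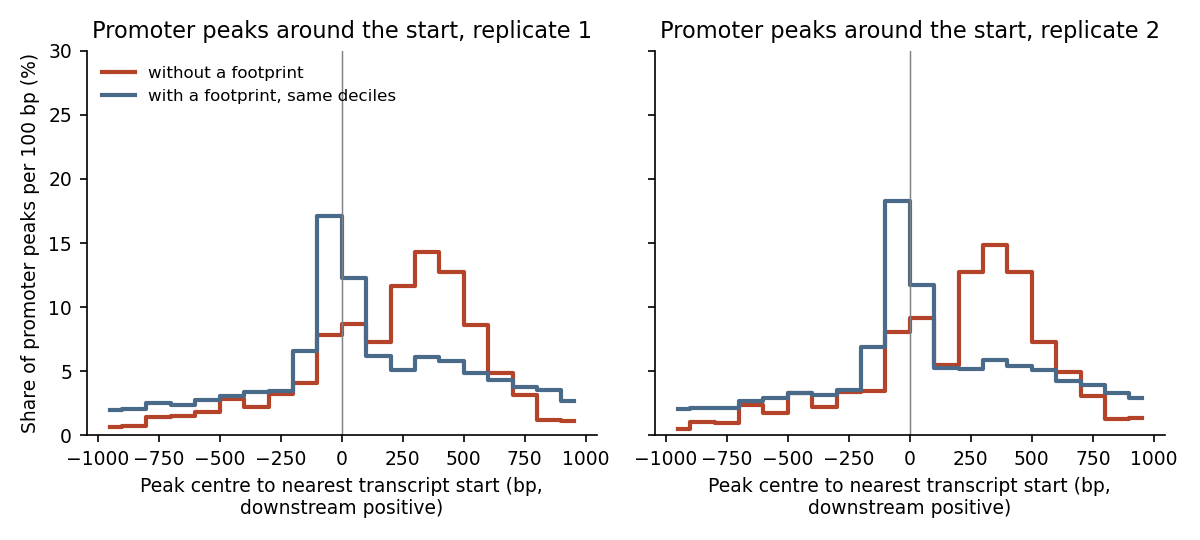
Position of promoter peak centres relative to the nearest annotated start (horizontal axis, bp, downstream positive) as the share of promoter peaks per 100 bp (vertical axis, percent), for members (red) and footprinted peaks of the same signal deciles (blue). The median member lies 276 bp and 267 bp downstream in replicates 1 and 2.

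Beside a member there was nearly always a stronger peak. A peak of higher signal lay within 1000 bp, centre to centre, of 89.1% of members in replicate 1 (87.6 to 90.5) and 86.4% in replicate 2 (84.7 to 87.9), against 21.2% and 20.6% of the comparison. The excess was 66.8 ± 1.55 points, and among promoter peaks alone the shares were 96.8% and 95.9% against 50.5% and 47.9%. Outside promoters they were 54.0% and 54.9% against 12.9% and 13.6%. Where any peak lay within 1000 bp, the strongest had 6.56 and 7.06 times the member's own signal at the median, against 1.11 and 1.11 times in the comparison. The median gap to the nearest peak was 200 bp in both libraries, against 1790 bp and 1856 bp. The nearest footprint began 182 bp and 172 bp from the member's edge at the median, and 93.9% and 91.5% of members had one within 1000 bp. Within 50 bp of the edge, 10.6% and 10.3% had one. The measures of neighbouring peaks and of position around the start were chosen after values had been seen.

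**Figure D4:**
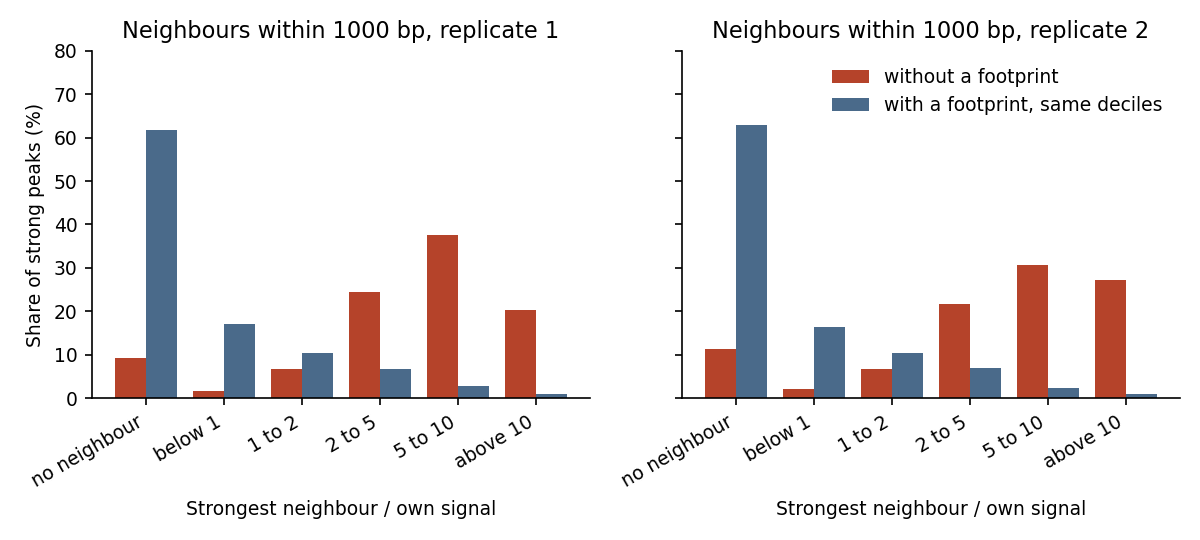
Share of strong peaks (vertical axis, percent) by the signal of the strongest other peak within 1000 bp divided by the peak's own signal (horizontal axis, classes), for members (red) and footprinted peaks of the same signal deciles (blue), 1 panel per replicate. A neighbour over 5 and up to 10 times as strong stands beside 37.6% and 30.7% of members and 2.92% and 2.38% of footprinted peaks.

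Width did not run in one direction. The median member was 260 bp wide in both libraries, and the comparison 200 bp. Members were wider at promoters (280 bp and 277 bp against 233 bp and 220 bp) and narrower elsewhere (182 bp and 180 bp against 200 bp and 191 bp). Both ends of the width range were overfilled. A narrower peak has less room for a footprint, so width moves with the rule that chose the members. The part of this in the narrow excess was not tested. Peaks of at least 300 bp made up 39.1% and 33.8% of members against 14.2% and 9.53%, and peaks under 100 bp made up 9.16% and 9.62% against 2.19% and 2.75%. The middle, from 160 to under 240 bp, held 16.7% and 22.0% of members and 57.4% and 62.9% of the comparison. Among strong peaks under 120 bp, 12.8% and 11.3% were members. That share was 0.514% and 0.604% from 160 to under 200 bp, and 7.41% and 8.38% at 300 bp or more.

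Members were richer in G, C and CpG than footprinted peaks of like signal. The median GC content was 61.7% and 60%, against 51.9% and 51.7%. The ratio of observed to expected CpG dinucleotides, which is near 1 where CpG is not depleted, had a median of 0.70 and 0.65 against 0.30 and 0.28. Peaks with at least 50% GC and a ratio of at least 0.6, taken here as like CpG islands, made up 59.9% and 54.1% of members against 13.0% and 11.7%. Much of this moved with location. Within promoters the shares were 68.9% and 66.5% against 40.3% and 39.2%, and outside promoters 19.3% and 12.7% against 4.58% and 4.04%. Among promoter peaks with a stronger neighbour the median GC content still stood at 63.8% and 62.7% against 60.6% and 60.5%.

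**Figure D5:**
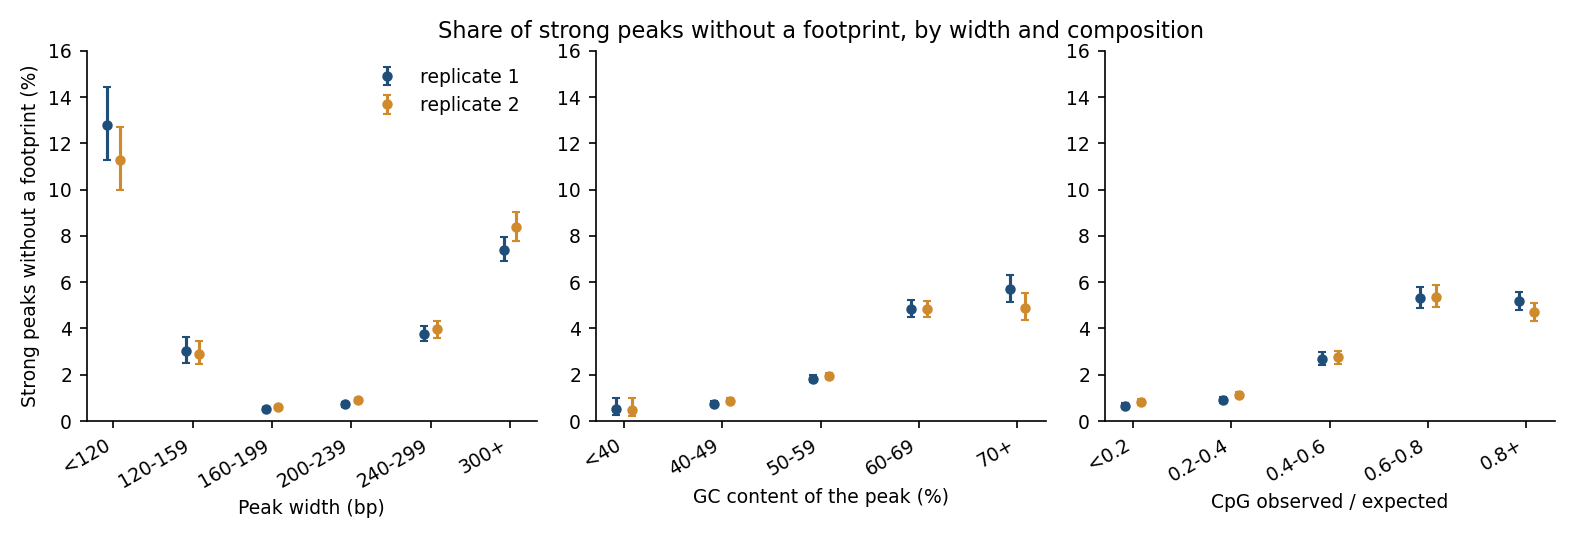
Members as a share of strong peaks (vertical axes, percent, with Wilson 95% intervals) by peak width, GC content and observed over expected CpG (horizontal axes), 1 colour per replicate. The share is high at both ends of width, with 12.8% and 11.3% under 120 bp, where there is less room for a footprint. It rises with GC, and with CpG up to the class of 0.6 to 0.8. These shares are over all strong peaks and are not matched for signal. Within signal deciles 6 and 7 the share goes on rising with CpG. There it is 14.09% and 14.95% in the class of 0.6 to 0.8, and 21.36% and 19.91% from 0.8 up.

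Repeats were rarer in members. At least 50% of the bases were marked as repeat in 0.449% and 0.945% of members, against 2.70% and 2.56% of the comparison, and no base was marked in 56.5% and 56.3% against 47.1% and 48.3%. The order was the same outside promoters, where 0.311% and 0.959% of members were mostly repeat against 2.99% and 2.84%. Peaks most of whose 31-base words occur more than once in the reference made up 0.112% and 0.0556% of members, against 0.565% and 0.520%. Short tandem repeats of at least 20 bp were found at like shares, at 2.36% and 2.61% against 2.53% and 2.48%.

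Members recurred less often between the libraries. The rule leaves out peaks with a footprint in the other library (1736 and 1187 peaks), so recurrence there is tied to the rule. How much of the deficit follows from that was not tested. A peak of the other library overlapped 76.7% of members in replicate 1 (74.7 to 78.7) and 68.1% in replicate 2 (65.9 to 70.2), against 93.1% and 91.1% of the comparison. The deficit was 19.7 points with an SD of 4.73 (n = 2). It was wider outside promoters, where 63.0% and 53.7% of members recurred against 92.6% and 90.1%, than in promoters, where 79.8% and 72.5% did against 90.8% and 91.2%. Of the 414 and 573 members with no peak in the other library, 57.7% and 70.3% overlapped an interval that the authors list there. Such intervals have a false discovery rate of up to 0.05. Of unshared comparison peaks, 28.0% and 33.1% overlapped one. Any overlap was counted, so an interval can belong to a neighbouring peak. Members as a whole were wider and closer to other peaks than the comparison, and the part of this was not tested. Each member was also classed by the 1 peak of the other library that it overlapped by the most bases. For replicate 1 that peak was a member in 938 cases (52.7%), a strong footprinted peak in 129, a weaker peak without a footprint in 279 and a weaker one with a footprint in 20. For replicate 2 these numbers were 935 (52.0%), 126, 145 and 19. The weaker peaks lie below the other library's own median, so these counts depend on the threshold. In their own library the members' median best false discovery rate was 6.65e-07 and 4.5e-06, against 4.67e-06 and 7.53e-06 in the comparison. Any interval that touched the peak was taken here too, so the best rate can belong to a neighbouring peak.

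A smaller set of members lacked a stronger neighbour. No stronger peak lay within 1000 bp of 194 members in replicate 1 and 245 in replicate 2. Their median width was 157 bp and 144 bp against 200 bp and 191 bp for footprinted peaks without a stronger neighbour, and 39.2% and 37.6% were under 120 bp against 4.48% and 5.00%. The other library had a peak at 55.2% and 53.5% of them, against 92.7% and 90.8%. Width and recurrence are both tied to the rule, as said above. Promoters held 23.7% and 23.3% of these members against 13.6% and 13.6%. The nearest footprint was 1350.5 bp and 1581 bp away at the median, where members with a stronger neighbour had one at 171 bp and 157 bp.

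Counting any overlap and not the largest one alone, 947 members of replicate 1 overlapped a member of replicate 2. Of these 947 sites, 825 were promoter peaks, 15 exonic, 67 intronic and 40 intergenic. A stronger peak lay within 1000 bp of 893 of them (94.3%). No other peak lay within 1000 bp of 42 sites, and 28 of these were in introns. Signals over the sites ran from 0.549 to 2.05 in replicate 1 with a median of 0.753, and from 0.663 to 2.43 in replicate 2 with a median of 0.872.

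The site with the highest mean signal lay at chr11:87109361-87109580, 220 bp downstream of the start of Ska2, a kinetochore gene. Its signal was 2.05 in replicate 1 and 2.08 in replicate 2, and the strongest peak within 1000 bp had 8.21 in replicate 1. The next, at chr8:31149841-31150020, was 36 bp downstream of the start of the small nucleolar RNA gene Snord13 with signals of 1.87 and 2.14. Of the 10 sites with the highest mean, 9 were promoter peaks, and each of those 9 had a stronger peak within 1000 bp, with 2.52 to 7.54 times its signal.

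A site 715 bp upstream of a start of Tef, which encodes a circadian bZIP factor, had signals of 1.57 and 2.43. The peak 21 bp upstream of a start of Rbm39, a splicing factor gene, had 1.97 and 1.93, beside a peak of 14.5. The peak 893 bp upstream of the start of Hspa8, which encodes a constitutive chaperone, had 1.70 and 1.72, beside a peak of 12.8. The remaining promoter sites among the 10 lay at Btbd10, at the Mediator gene Med1, at the peroxisome gene Pex2 and at the Polycomb gene Cbx8. The tenth was the intergenic peak shown above.

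Outside promoters, the strongest exonic sites were 2 overlapping peaks in Rhob, a small GTPase gene, with signals of 1.21 and 0.985 in replicate 1. Among intronic sites the Snx29 peak ranked highest. Its signals of 1.00 and 2.24 differed more between the libraries than those of the Ska2 or intergenic sites. An intronic site of Dab2ip, which encodes a Ras GTPase-activating protein, had 0.876 and 1.33 and no other peak within 1000 bp. Intronic sites of Shisal1 and Rgs7bp had neighbours of 2.03 and 2.50 times their own signal.

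The 5 widest sites, by their width in replicate 1, were all promoter peaks. They had 920 bp at Id4, 900 bp at Stim2, 880 bp at Actn1, 840 bp at Ankrd17 and 820 bp at Gtpbp6. In replicate 2 the widths were, in the same order, 560, 660, 600, 780 and 580 bp. Each replicate 1 peak overlaps another peak of the same list, as did 9.72% and 6.79% of all members, against 3.00% and 1.73% of the comparison. The GC content of the 5 replicate 1 peaks lay between 62.7% and 68.5%. No footprint was called in these 820 to 920 bp in either library, and the nearest lay 87 to 232 bp from the edge.

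Of protein-coding genes on chromosomes 1 to 19 with any promoter peak, 9.91% in replicate 1 (1435 of 14474) and 9.87% in replicate 2 (1417 of 14360) had a member within 1000 bp of a start. The strongest promoter peak of these genes had a median signal of 5.69 and 7.57, against 3.59 and 4.04 over all genes with a promoter peak. This order is tied to the rule. Of all genes with a promoter peak, only 13282 and 13023 had one at or above the median signal and could hold a member. Genes with a member also had more promoter peaks, a median of 3 against 2 in both libraries. The part of either was not tested. Among 8 autosomal housekeeping genes, 6 had a member in replicate 1 and 4 in replicate 2. Eef1a1, a translation elongation factor gene, had a member of 0.549 and 0.713 beside a strongest peak of 5.79 and 7.76. Ppia, which encodes cyclophilin A, had 1.17 and 1.22 beside 10.2 and 9.37. Rplp0, a ribosomal protein gene, had 1.17 and 1.17 beside 14.85 and 14.98, and the signalling adaptor gene Ywhaz had 0.777 and 1.01 beside 9.59 and 13.5. Actb and Gapdh had a member in replicate 1 only.

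The marker lists of cortical cell types gave few genes with a member, to be read beside the 9.91% and 9.87% over all genes. Of 9 pan-neuronal genes none had one in replicate 1, and Nefl (0.762) and Rbfox3 (0.872) had one in replicate 2. Of 10 excitatory neuron genes Nrgn had one in replicate 2 (0.780), and of 9 astrocyte genes with a promoter peak Id4 had one in both libraries. There was none in the lists for inhibitory neurons, oligodendrocyte precursors, myelinating oligodendrocytes, microglia or endothelial cells in either library. Only genes with a promoter peak at or above the median signal could hold a member. In replicates 1 and 2 these numbered, in the same order, 7 and 5, 7 and 7, 4 and 2, 7 and 7, and 5 and 2. Such numbers are too small to tell none from the share over all genes. Promoter signal was lower in several of these lists than in the housekeeping list, with medians of the strongest promoter peak of 0.727 and 0.759 for microglia against 8.34 and 10.6, and its part in the counts was not tested. The lists are short, so these are counts and not a contrast between cell types. Of the olfactory receptor genes, a family of the nose, 10 and 11 had a promoter peak at or above the median signal and so could hold a member, and none did.

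A gene's strongest promoter peak was itself a member in 10 of 13282 protein-coding genes in replicate 1 and 12 of 13023 in replicate 2. These are the genes whose strongest promoter peak reached the median signal. Over all genes with a promoter peak the strongest had a median of 3.59 and 4.04, above the highest member signal of 2.53 and 2.43. Both libraries gave Sfi1, which encodes a centrosomal protein, and B430305J03Rik. The Sfi1 peak, at chr11:3142561-3142720, had a signal of 1.73 and 1.55, no other peak within 1000 bp, and its nearest footprint 4020 bp away. In that peak 33.8% of the 31-base words occur more than once in the reference. The B430305J03Rik peak had 0.905 and 0.878. The genes whose bodies hold the most sites, 3 each, were 9930021J03Rik, Arhgap26, Gm20388, Rab11a and Tiam1.

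The central 150 bp of the peaks were searched on both strands for 17 words, each a short consensus of a factor family. A match is a run of letters and not a bound site. In both libraries 13 words were less frequent in members than in the comparison and 4 were more frequent. Some of these directions rest on few members. The words counted as less frequent include MEF2, in 1 and 1 members, and CRE, in 3 and 3. Those counted as more frequent include NRF1, in 3 and 2, and EGR, in 7 and 12. For NRF1 the shares were 0.169% and 0.111% against 0.108% and 0.105%. The CTCF word, for the factor of chromatin loop anchors, was in 5.76% ± 1.54 (SD, n = 2) of members and in 11.97% and 12.02% of the comparison, with 11.7% over all peaks. With width bins as well as signal deciles that deficit shrank from -6.23 to -2.57 points, and to -1.16 in replicate 1. The NFI word TTGGCA was in 7.12% ± 0.621 against 15.6% (all peaks 14.7%). The neuronal E-box CAGATGG, of the kind bound by NeuroD factors, was in 3.38% ± 0.569 against 9.53% (all peaks 8.40%). The AP-1 word TGANTCA, for the activity-regulated Fos and Jun family, was in 3.30% ± 0.609 against 8.40% (all peaks 7.79%). The RFX word GTTGCCA was in 1.45% ± 0.0103 against 4.28% (all peaks 3.98%).

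The SP word GGGCGG, the GC box, was in 25.2% ± 2.39 of members against 10.9%, with 12.6% over all peaks, and the ETS word CCGGAAG was in 3.08% ± 0.338 against 1.40% (all peaks 2.26%). Within promoters the GC box was in 28.8% ± 1.78 against 25.95%, and the ETS word in 3.27% ± 0.323 against 2.55%. Promoter and other members held the CTCF word less often than their comparison, in 6.10% against 9.70% and in 4.44% against 12.1%. Over all peaks the differences for the SP, AP-1, NeuroD-type and NFI words were 14.3, -5.10, -6.15 and -8.43 points. They were smaller outside promoters, at 4.89, -3.07, -3.28 and -5.58 points. Within promoters they were smaller too, at 2.89, -2.17, -2.60 and -4.14 points. Members and comparison differ in their share of promoter peaks, and its part in the differences over all peaks was not tested. Outside promoters the counts were 3 words more frequent, 10 less frequent and 4 in opposite directions in the 2 libraries. Some of these again rest on few members. The E-box CAGCTG was, outside promoters, in 17.6% ± 0.528 of members and 17.6% ± 0.465 of the comparison. Words can overlap one another, and GC content, which also differs between the sets, moves with the letters of each word. Its part was not tested.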

How the data were processed

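DNase-seq libraries of 2 replicates of 1 group were used. The labels give replicate numbers within the group, and no batch. For each library the authors deposited peaks, footprints and intervals with a false discovery rate, made from that library's own mm10 alignments, with replicates not pooled, per the file headers and labels. The sources used here do not give the aligner, the peak caller or the footprint caller. The signal is the authors' deposited peak height scaled to depth. The deposited q-value (false discovery rate) file lists only intervals up to 0.05. Total read depth is unknown, so precision is given in signal steps (within 0.05 of a whole step for every value checked).

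Peaks were placed by their centre with GENCODE M21, in the order promoter, exon, intron and intergenic. Sequence, repeat marks (lower-case bases) and copies of 31-base words came from the RefSeq GRCm38.p6 reference, the assembly that mm10 names. Footprinted strong peaks were weighted to the members' distribution over 10 signal bins, and shares have Wilson 95% intervals. The weighting was tested on simulated data.

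The members, lists, words and tests were chosen with earlier results of these data known. Sites named are the 10 with the highest mean signal, the 5 highest per location class, the 5 widest, the 5 genes with the most sites, and list genes with a member. Where these were many, examples were given. Neighbouring peaks, position around starts, members without a stronger neighbour, and genes whose strongest peak is a member were added after values were seen. Alternatives were the footprint rule, the signal threshold, the stricter peak list, the promoter window, width bins, and each library alone. Chromosomes X and Y and the contents of the constant score columns were left out. Python 3.11.15, NumPy 2.4.6, pandas 2.3.3, SciPy 1.17.1 and Numba 0.67.0 were used.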

Additional observations from a re-analysis of the deposited data

How the results depend on the processing

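The excess width turned over outside promoters (-14.75 bp) and among peaks without a stronger neighbour (-45 bp). The other differences kept their direction in each library alone and under every alternative run for promoter share, repeats, sharing, GC, CpG ratio, neighbours and the downstream zone. Their size moved, and the cause was not tested. Members were 2.36% of strong peaks on average, 2.11% when a footprint within 50 bp also counted, 2.50% when the whole footprint had to lie inside, 4.29% with footprints of the own library alone, 0.309% above the upper quartile of signal and 0.707% in the stricter list. In the same order the excess width of 60 bp became 70, 50, 50, 50 and 36 bp. The promoter excess of 56.9 points was 44.2 with a window of 500 bp, 51.9 with 2500 bp, 46.9 with signal and width bins, 45.2 with own footprints and 61.0 above the upper quartile. The repeat deficit of -1.93 points was -3.05 by the centre base and -1.24 with width bins. The GC excess of 9.04 points was 7.20 with width bins, 3.71 outside promoters and 6.93 with own footprints, and the CpG ratio excess of 0.383 was 0.329 and 0.0837 under the first 2. With width bins the excess with a peak within 500 bp fell from 54.7 to 42.3 points, and that with a stronger peak from 66.8 to 57.1. The downstream excess of 25.8 points was 26.5 by protein-coding starts and 19.2 with a stronger neighbour. Values that turned over were the exon difference with the 500 bp window (1.09 points) and, outside promoters, the words CRE (0.0653), E-box (0.0103) and EGR (-0.0141). Of single-class and single-word values, 42 others moved by more than the SD over the 2 libraries and 54 did not. The 54 include the values of each library alone, which cannot lie further than that SD from their mean. Alternatives on neighbours and starts, and those of width, promoter share and GC by footprint rule, threshold or set of peaks (width), were chosen after seeing the data. No paired analysis was possible because the series holds 1 group. Signal depth is known in steps alone, and 2 libraries limit every SD.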
